A study of Mus musculus with 10 samples.

Results

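The endothelial genes of the testis were 10 protein-coding genes, *Pecam1*, *Cdh5*, *Kdr*, *Flt1*, *Tek*, *Tie1*, *Vwf*, *Eng*, *Esam* and *Vegfa*. They were chosen by name, and the values of all transcripts with a RefSeq mRNA identifier (NM_) were summed for each gene in all 10 samples. Of the 10 genes, 6 were listed with a value above 0 in at least 1 sample, out of 16082 genes of NM_ transcripts and 69572 genes of all classes in the series. The 4 genes that no sample listed were *Pecam1*, *Cdh5*, *Flt1* and *Esam*.

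The series profiled total RNA of mature sperm and of testes from C57BL/6 mice (C57BL/6J in the study's methods), 3 to 5 months old, by RNA-seq after removal of ribosomal RNA. Mice in the cadmium groups had received CdCl2 once, intraperitoneally, at 3 mg/kg, the controls had received saline instead, and all were killed 35 days later, with 50 mice in each treatment. The study's methods, which describe no cadmium groups, give a larger number of mice and a younger age range, so the sources differ on these details. There were 4 samples of control sperm, 2 of control testes, 2 of cadmium sperm and 2 of cadmium testes. The control sperm samples were pools of several mice, and by the study's methods the control testes came from the same mice, so these 2 groups share animals, which the unpaired tests do not take into account. The labels do not say how many mice stand behind a testes sample or a cadmium sperm sample, so the p-values measure only the spread between these samples.

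Blood vessels of the testis run between the seminiferous tubules, and their lining cells, the endothelium, are a known early target of cadmium in rodents. The ligand VEGF-A, encoded by *Vegfa*, is secreted by many cell types and acts on the endothelial tyrosine kinase receptors VEGFR2 (*Kdr*) and VEGFR1 (*Flt1*), while the angiopoietin receptor TIE2 (*Tek*) and its partner TIE1 (*Tie1*) control the stability of vessels. Endoglin (*Eng*) is a co-receptor for ligands of the TGF-beta and BMP family, PECAM-1 (*Pecam1*), VE-cadherin (*Cdh5*) and ESAM (*Esam*) hold endothelial cells together, and von Willebrand factor (*Vwf*) is stored by these cells and binds platelets.

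The results below turn on *Vegfa* and *Eng*, the genes with most counts, so the bases before their start sites are shown, taken from RefSeq on GRCm38.p6. *Vegfa* lies on chromosome 17 (chr17:46016993-46032377, minus strand) and *Eng* on chromosome 2 (chr2:32646595-32682669, plus strand). Each sequence below is the 250 bases before a start site, 5′ to 3′ on the strand of the gene, and capitals mark a GC box (GGGCGG or its reverse CCGCCC) or a core of ETS factor sites (AGGAAG or its reverse CTTCCT).
Vegfa, chr17:46032378-46032627, minus strand: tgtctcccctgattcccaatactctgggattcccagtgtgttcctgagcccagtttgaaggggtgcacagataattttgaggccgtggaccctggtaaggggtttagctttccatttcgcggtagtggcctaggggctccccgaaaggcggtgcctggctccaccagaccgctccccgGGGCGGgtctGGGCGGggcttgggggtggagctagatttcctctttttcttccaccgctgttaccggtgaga
Eng, chr2:32646345-32646594, plus strand: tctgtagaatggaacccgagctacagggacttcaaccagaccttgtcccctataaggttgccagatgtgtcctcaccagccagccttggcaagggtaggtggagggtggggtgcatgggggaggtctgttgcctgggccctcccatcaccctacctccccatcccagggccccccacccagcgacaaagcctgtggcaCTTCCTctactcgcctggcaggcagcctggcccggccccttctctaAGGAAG
The *Vegfa* window held 2 GC boxes and 0 of the ETS cores, and the *Eng* window held 2 ETS cores and 0 GC boxes. Among 32851 promoter windows of the same length, 32.7% held a GC box and 29.5% held the ETS core on either strand, so each match was common. Of the 10 genes, 6 had an entry in the promoter table. The second *Vegfa* start and the windows of *Tek*, *Tie1*, *Kdr* and *Flt1* held 0 to 3 GC boxes and 0 to 2 ETS cores.

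As to depth, the expected counts of a sample, which are estimates of the fragments from each transcript, summed to between 2606086 and 2866856 in testes and between 366455 and 1254477 in sperm. Genes of NM_ transcripts held 9.14 to 13.6% of these counts, and known lncRNAs held 73.4 to 78.6%. A listed NM_ gene had a median of 4 to 5 counts in testes and 3 to 9 in sperm, and a testes sample listed 11537 to 12250 such genes. The housekeeping gene *Actb*, looked up after the other values were seen, had between 16.09 and 22 counts in a testes sample. In control sperm pool 1, which the study set aside, *Actb* and *Gapdh* were both listed at 0. This pool is left out of the fits and of the group means, and is given among the single values. A count of 0 allows a level of up to 1.05 to 1.15 CPM (counts in each 1000000 of the library) in testes and 2.39 to 8.19 CPM in sperm, taken as 3 counts, which covers counting error only.

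Most of the endothelial genes were at or near 0 in testes. Of the 10 genes, *Tek* and *Eng* were listed in 4 of 4 testes samples, *Vegfa* in 3, *Tie1* and *Vwf* in 1 each, and the other 5 in none. In sperm, *Vegfa* was listed in 6 of 6 samples, *Eng* in 3, *Tek* in 2, and *Kdr* and *Vwf* in 1 each. A gene missing from these tables is not shown to be silent, because at this depth it could lie anywhere below the limits given above, and reads shared with overlapping transcripts of other classes could have been assigned elsewhere, which was not analysed here.

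**Figure D1:**
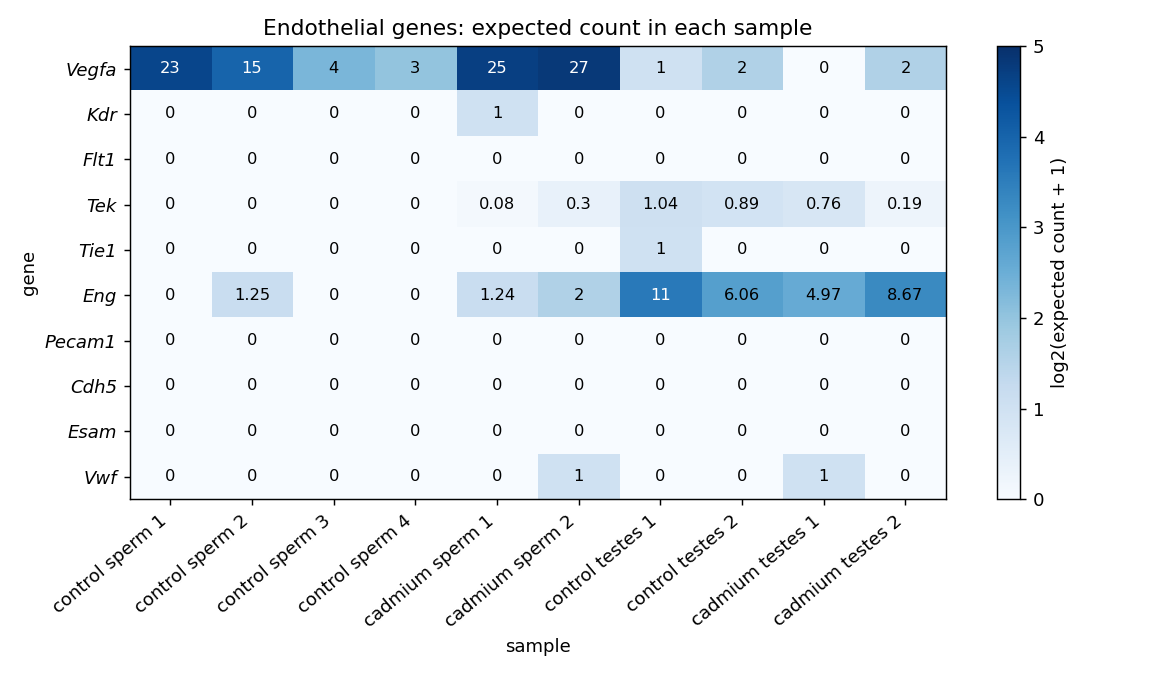
Expected counts of the 10 genes (rows) in the 10 samples (columns), with the colour on a log2(expected count + 1) scale and the count printed in each cell. *Vegfa* has 3 to 27 counts in the sperm samples and 0 to 2 in testes, *Eng* has 4.97 to 11 in testes and 0 to 2 in sperm, and every other cell is at or below 1.04.

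For the ligand gene *Vegfa*, control sperm pools 1 to 4 had 23, 15, 4 and 3 expected counts, the cadmium sperm samples 25 and 27, the control testes 1 and 2, and the cadmium testes 0 and 2. Scaled to transcript length and library size as FPKM, the levels were 16.44, 4.29, 3.32 and 1.79 for the control pools, 6.53 and 6.51 for cadmium sperm, 0.10 and 0.24 for control testes, and 0 and 0.22 for cadmium testes. Every sperm sample lay above every testes sample, and control sperm pool 1 lay far above the other control pools. The order of the group means was cadmium sperm, 6.52 ± 0.0141 FPKM (SD, n = 2), then control sperm, 3.13 ± 1.26 FPKM (SD, n = 3), then control testes, 0.170 ± 0.0990 FPKM (SD, n = 2), and cadmium testes, 0.110 ± 0.156 FPKM (SD, n = 2). The last pair in this order lay within their spread. As shares of the library, with 95% Wilson intervals, *Vegfa* made up 14.2 CPM (8.59 to 23.4), 10.9 CPM (4.24 to 28.1) and 5.90 CPM (2.01 to 17.4) in control pools 2 to 4. The shares were 21.6 CPM (14.7 to 31.9) and 21.5 CPM (14.8 to 31.3) in cadmium sperm, and at most 0.767 CPM (0.210 to 2.80) in a testes sample. Thus the sperm intervals of single samples overlapped across treatments for pools 2 to 4, while control pool 1 stood at 54.2 CPM (36.1 to 81.3), above both cadmium intervals.

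**Figure D2:**
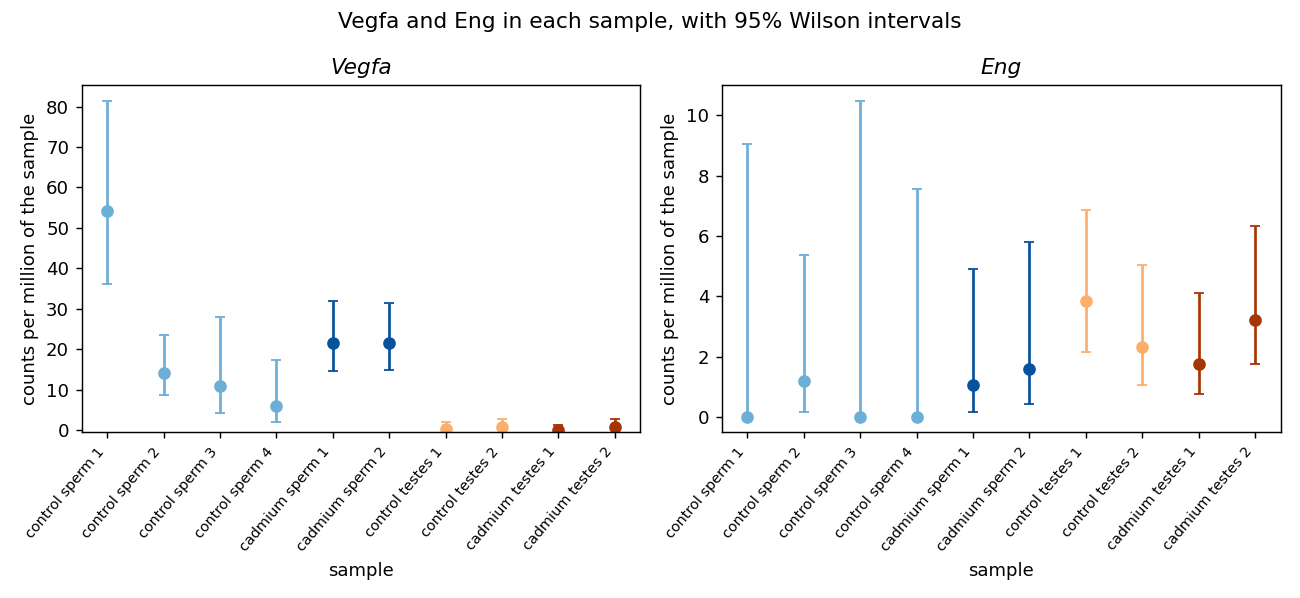
CPM of *Vegfa* (left) and *Eng* (right) in each of the 10 samples, with bars for the 95% Wilson intervals, which cover counting error only, and separate vertical scales. All *Vegfa* points of sperm, from 5.90 to 54.2 CPM, lie above those of testes, from 0 to 0.767 CPM, while the *Eng* intervals of sperm and testes overlap.

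*Vegfa* counts were assigned to 2 of the 10 NM_ transcripts that RefSeq gives for the gene. NM_001287058, of 3326 bases, took most of the counts of a sample and NM_001025257, of 3327 bases, took 18.5 to 28.0%. Their lengths differ by 1 base, and the sum over both was a whole number in every sample that listed the gene. The share of the first was 73.4 to 75.7% in sperm and 72.0 to 81.5% in testes, where it rests on 1 or 2 counts a sample.

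The receptors of VEGF-A and of the angiopoietins were hardly measured. *Kdr* had 1 count, 0.16 FPKM, in cadmium sperm 1 and was listed nowhere else, and *Flt1* was listed nowhere. *Tek* had 1.04 and 0.89 counts in control testes against 0.76 and 0.19 in cadmium testes, or 0.08, 0.08, 0.06 and 0.02 FPKM in the same order, and 0.08 and 0.30 counts in cadmium sperm. Each testes estimate of *Tek* was below 3 counts, the amount that a count of 0 still allows, so no order was read from them. *Tie1* had 1 count, 0.09 FPKM, in control testes 1 alone.

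The co-receptor gene *Eng* had the most counts in testes of the 10 genes, with 11 and 6.06 counts in control testes against 4.97 and 8.67 in cadmium testes. Its FPKM were 1.08 and 0.66 in control testes, 0.49 and 0.90 after cadmium, 0, 0.35, 0 and 0 in control sperm pools 1 to 4, and 0.31 and 0.46 in cadmium sperm. The testes treatments overlapped, and the lowest testes value stood just above the highest sperm value. Group means were 0.870 ± 0.297 FPKM in control testes (SD, n = 2), 0.695 ± 0.290 in cadmium testes (SD, n = 2), 0.385 ± 0.106 in cadmium sperm (SD, n = 2) and 0.117 ± 0.202 in control sperm (SD, n = 3), and no neighbours in this order were farther apart than the sum of their SDs. Over the 4 testes samples *Eng* had 30.7 counts, at or above 71.3% of the 15469 NM_ genes listed there, against 35.0% for *Vegfa* with 5 counts and 20.2% for *Tek* with 2.88.

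The transcripts behind *Eng* differed between the tissues as the tables list them. In all 4 testes samples its counts stood on NM_001146350 alone, of 3572 bases, whereas in the 3 sperm samples that listed it they stood on NM_007932, of 3433 bases, with 4.03 to 5.0% of the counts, and on NM_001146348, of 3430 bases, with the rest. The sperm values rest on 1.24 to 2 counts a sample, too few to test the difference in transcripts.

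Among the junction genes and *Vwf*, *Pecam1*, *Cdh5* and *Esam* were listed in no sample, so 3 genes by which endothelium is usually recognised were at 0 in every testes sample. *Vwf* had 1 count each in cadmium sperm 2 (0.09 FPKM) and cadmium testes 1 (0.04 FPKM). Summed over the 9 genes other than *Vegfa*, the counts were 13.04 and 6.95 in control testes, 6.73 and 8.86 after cadmium, and 0 to 3.30 in sperm, most of them from *Eng*. As shares of the library these sums were 4.55 and 2.67 CPM in control testes, 2.37 and 3.27 CPM in cadmium testes, and 0 to 2.63 CPM in sperm.

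To ask whether cadmium altered these genes in testes, all genes with at least 10 counts over the 4 testes samples were tested with edgeR's quasi-likelihood test, and calls needed both an adjusted p (Benjamini-Hochberg) under 0.05 and more than a 2-fold difference. Of the 10 genes only *Eng* passed the filter, and 0 were called, beside 0% of the 30374 genes tested. At an unadjusted p under 0.05 there were 377 genes, and DESeq2 called 5 and limma 0, none of them a member of the 10. *Eng* differed by -0.14 on the log2 scale between cadmium and control testes (SE 0.74, 95% interval -1.77 to 1.49, edgeR adjusted p = 1.00), so a fall to less than 0.5 of the control level and a doubling both remain within the interval. In bulk samples fewer endothelial cells and less RNA in each of them cannot be told apart.

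In sperm, cadmium was compared with control pools 2 to 4, and 0 of the 10 genes were called, beside 0.112% of 16924 genes tested. *Vegfa*, which alone passed the filter, had a log2 difference of 1.05 (SE 1.34, 95% interval -1.59 to 3.68, edgeR adjusted p = 1.00), and both cadmium values exceeded all 3 control values. The share of all genes with such a separation was not counted. With pool 1 added to the controls the difference was 0.22, and that pool lay above both cadmium samples. The median over all genes tested was 0.39, or 0.25 with RLE scaling, under which *Vegfa* stood at 0.91. The difference of the cadmium effects, in testes minus in sperm, was -1.54 for *Vegfa* (SE 1.95, edgeR adjusted p = 1.00) and -1.40 for *Eng* (SE 2.15, edgeR adjusted p = 1.00), and 0 of the 10 genes were called in this test, beside 0.00864% of 34722 genes tested.

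Sperm and testes were then compared within each treatment. In cadmium mice *Vegfa* was higher in sperm than in testes by 5.92 on the log2 scale (SE 0.92, 95% interval 4.09 to 7.75, edgeR adjusted p = 2.45e-07). Of the 10 genes 2 were tested here, *Vegfa* and *Eng*, and *Vegfa* reached the filter of 10 counts only through its sperm counts. *Vegfa* was the 1 gene called as higher in sperm, beside 14.2% of 26858 genes tested, and 0 were called as lower, beside 14.1%. The call was lost without cadmium sperm 2 (5.86, adjusted p = 0.0559) and was kept without each of the other 3 samples. With 1 sample left out, 1 group holds a single sample, which is assumed to vary like the other group. As pooled counts, 52 in cadmium sperm against 2 in cadmium testes gave a ratio of shares of 59.9 (exact 95% interval 15.8 to 508, counting error only). In control mice the fitted log2 difference of *Vegfa* was 4.19 (SE 1.92, 95% interval 0.42 to 7.96) and was not called by edgeR (adjusted p = 0.116, unadjusted p = 0.0295). There *Vegfa* again reached the filter only through sperm. In that comparison 0 of the 2 genes tested were called, in either direction, beside 3.3% higher and 3.9% lower of 26072 genes tested. DESeq2 called the control difference as well (4.02, adjusted p = 0.0309), as did edgeR without pool 3 (4.23, adjusted p = 0.0279) and in 1 model of 9 samples (3.90, adjusted p = 0.0247). The pooled control counts, 22 in sperm and 3 in testes, gave a ratio of 20.8 (exact 95% interval 6.24 to 108).

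The sign of the *Eng* difference was opposite to that of *Vegfa* in both treatments, but neither *Eng* difference was called. *Eng* reached the count filter only through testes, with 17.06 counts in control testes against 1.25 in control sperm. In cadmium mice it had 13.64 counts in testes against 3.24 in sperm. *Vegfa* reached the filter only through sperm. The filter itself thus favoured opposite signs, and no contrast between these genes was read from them. Control sperm minus control testes was -2.19 (SE 1.56, 95% interval -5.25 to 0.86, edgeR adjusted p = 0.335), and the same difference in cadmium mice was -0.78 (SE 1.26, 95% interval -3.29 to 1.73, edgeR adjusted p = 0.688). The median log2 difference over all genes tested was -1.08 in control mice and -0.43 in cadmium mice, so a value of *Eng* near these lies close to the centre of the whole table. With RLE scaling the control median was -1.47, a shift of the whole table, and 32.2% of the calls were higher in sperm instead of 45.8%. *Vegfa* kept its direction under both scalings.

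**Figure D3:**
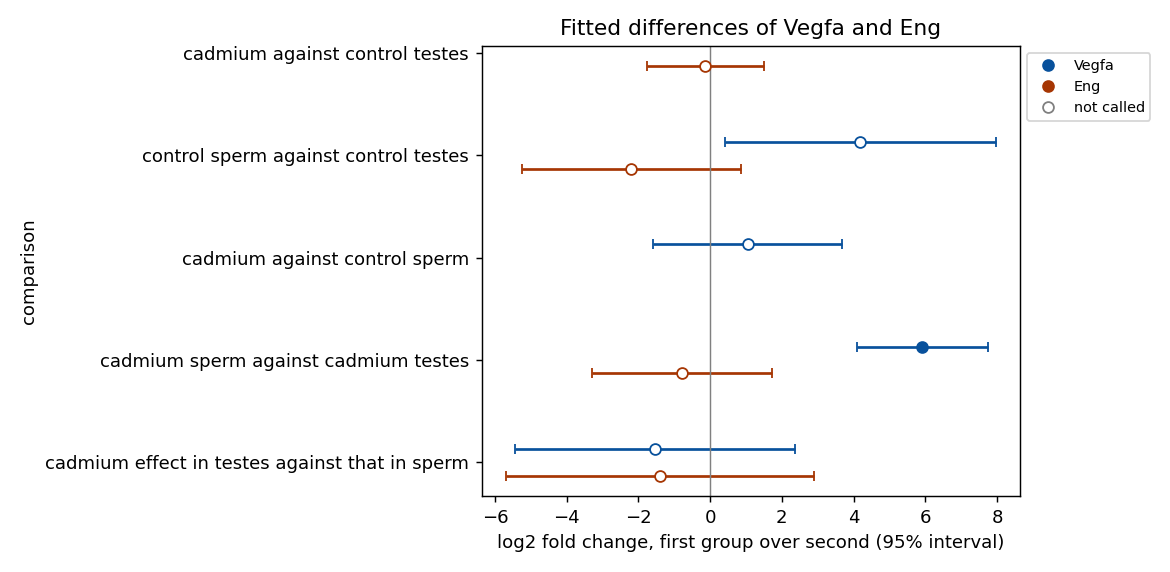
Log2 fold changes of *Vegfa* and *Eng* fitted by edgeR in each comparison in which they could be tested, first group over second, with 95% intervals and open symbols for differences that were not called. The 1 filled symbol is *Vegfa* in cadmium sperm against cadmium testes, at 5.92, and the intervals of both cadmium effects span 0.

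Depth moved with the *Vegfa* difference, since sperm libraries held fewer counts than testes libraries, and its part in the difference was not tested. The study also describes its sperm RNA as largely fragmented, without the ribosomal RNA peaks of testes. The part of RNA quality in the difference was not tested either. Markers of other cells overlapped between the tissues. The summed level of 12 leukocyte genes was 0 to 21.6 CPM in sperm and 6.91 to 11.2 CPM in testes, with *Itgam* and *Adgre1* at 0 in every sample, and that of 8 genes of epididymal epithelium and other contaminants of sperm was 0 to 17.7 CPM in sperm and 5.58 to 22.9 CPM in testes. Control sperm pool 1, where *Vegfa* was highest, listed 0 of the 12 and 0 of the 8, and its sum over the other 9 endothelial genes was 0. In the same pool the further endothelial genes described below summed to 37.7 CPM, and those of pericytes and smooth muscle to 75.4 CPM. Genes of Leydig and Sertoli cells summed to 0 there. This pool listed only 2025 NM_ genes, and the source of its *Vegfa* counts was not tested. Over the 6 sperm samples the leukocyte genes *C1qb* and *Cd4* had 31 counts in 4 samples and 12 counts in 3, and *Ptprc*, the pan-leukocyte antigen, 1 count in 1. Of the epithelial genes, the keratin *Krt18* had 15 counts in 4 sperm samples, against 1 count over the testes samples, and the cadherin *Cdh1* had 4 counts in 2. The study lysed somatic cells before RNA isolation, and its PCR of purified sperm amplified neither *Cd4* nor E-cadherin (*Cdh1*).

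Other genes of endothelium ranged in testes from 0 counts to more counts than *Eng*. Of 29 further endothelial genes, 19 were listed in at least 1 testes sample, 7 in all 4, and 10 in no sample of the series, among them *Robo4*, *Egfl7*, *Calcrl* and *Ramp2*. *Cldn5*, the tight junction protein of endothelium, and *Emcn*, endomucin, had at most 2 counts and 1 count in a testes sample. Over the 4 testes samples *Cd34* had 112 counts, *Nos3* 79, *Sele* 67 and *Ptprb* 23.5, beside 30.7 for *Eng*. The list's sum was 21.4 to 38.0 CPM in testes and 0 to 42.4 CPM in sperm. *Cd34*, a surface sialomucin of endothelium and of progenitor cells, had 40 and 16 counts in control testes against 36 and 20 in cadmium testes, with a log2 difference of 0.09 (SE 0.54, edgeR adjusted p = 1.00). *Sele*, the adhesion molecule E-selectin, had 19 and 11 counts in control testes against 19 and 18 in cadmium testes, with a difference of 0.40 (SE 0.58, edgeR adjusted p = 1.00). The treatments overlapped in *Cd34*, whereas in *Sele* both cadmium samples (2.32 and 2.31 FPKM) lay above both controls (2.30 and 1.47 FPKM). With so few samples such a separation happens readily by chance, and its share over all genes was not counted. With cadmium in testes 0 of the 5 genes of this list that were tested were called, beside 0% of all 30374 genes tested. Of the 5, 3 had a positive difference, and the list's median was 0.09 beside 0.02 over all NM_ genes tested.

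For the ligands, receptors and transcription factors around the VEGF, angiopoietin, Notch and BMP pathways, 20 of 21 genes were listed and 11 were tested in testes. None of these 11 was called with cadmium by edgeR, beside 0% of all 30374 genes tested. A positive difference was seen in 5 of the 11, and their median was -0.13. *Angpt2*, the angiopoietin that antagonises TIE2 on vessels, had 60 and 22 counts in control testes against 47 and 14 in cadmium testes (log2 difference -0.37, SE 0.58, edgeR adjusted p = 1.00). *Prokr1*, a receptor of the endocrine-gland VEGF prokineticin, had 20 and 26 counts in control testes against 37 and 29 in cadmium testes (0.52, SE 0.54, edgeR adjusted p = 1.00). The 2 *Prokr1* groups did not overlap, which happens readily by chance with 2 samples in each. The share of all genes whose groups did so was not counted.

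Between cadmium sperm and cadmium testes 9 genes of this list were tested, of which 3 were called as higher and 1 as lower in sperm, beside the 14.2% and 14.1% of all genes. Of the called genes, *Jag1* and *Acvrl1* reached the filter of 10 counts only through sperm and *Angpt2* only through testes. The difference was positive in 3 of the 9, with a median of -0.82 beside -0.38 over all NM_ genes tested. *Jag1*, a Notch ligand, had 52 and 25 counts in cadmium sperm and 3 and 5 in cadmium testes and was higher in sperm by 4.63 (SE 0.73, edgeR adjusted p = 3.82e-07). *Efnb2*, the arterial ephrin, had 103 and 62 counts in cadmium sperm and 25 and 12 in cadmium testes and was higher by 3.65 (SE 0.61, edgeR adjusted p = 1.25e-06). *Acvrl1*, which encodes ALK1, the receptor that endoglin assists, had 5 and 8 counts in sperm and 2 and 3 in testes and was higher by 2.76 (SE 1.08, edgeR adjusted p = 0.0443), a call that was lost without any 1 of the 4 samples (2.28 to 3.38). DESeq2 did not call *Acvrl1* (2.77, adjusted p = 0.1695). Among alternatives other than left-out samples, only the filter of 1 FPKM in 2 samples kept its call. *Angpt2* was lower in sperm, with 2 and 1 counts and a log2 difference of -2.72 (SE 0.98, edgeR adjusted p = 0.0277), and lost this call without 3 of the 4 samples (-3.26 to -1.94). DESeq2 (-2.80, adjusted p = 0.1305), limma and 1 model of 9 samples did not call *Angpt2* either. In control mice 8 genes of the list were tested and 0 were called, beside 3.3% higher and 3.9% lower of all genes tested. Their median was -0.87 beside -1.19 over all NM_ genes.

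Genes of pericytes and smooth muscle, the cells around vessels, included 1 gene that was called in both comparisons of sperm with testes. *Notch3*, the Notch receptor of mural cells, had 10, 24, 16 and 14 counts in control sperm pools 1 to 4, 38 and 36 in cadmium sperm, and 3, 1, 2 and 1 in the testes samples, controls first. In both comparisons *Notch3* reached the filter of 10 counts only through sperm. It was higher in sperm by 5.46 in control mice (SE 1.63, edgeR adjusted p = 0.0178) and by 5.96 in cadmium mice (SE 0.82, edgeR adjusted p = 1.15e-08). The control call was lost without sperm pool 2 and without either testes sample (4.75 to 5.61). It was also lost with no filter (5.13, edgeR adjusted p = 0.0767) and over genes of NM_ transcripts alone (4.62, edgeR adjusted p = 0.0537). The cadmium call was kept without each sample. *Notch3* was the only gene of the list called, 1 of 4 tested in control mice, beside 3.3% of all genes called as higher, and 1 of 5 in cadmium mice, beside 14.2%, with medians of -0.41 and -0.52. *Tagln*, an actin-binding protein of smooth muscle, had 56 and 50 counts in control testes against 66 and 45 in cadmium testes, with a difference of 0.09 (SE 0.47, edgeR adjusted p = 1.00). *Kcnj8*, a potassium channel subunit of pericytes, had 5 and 8 counts in control testes against 3 and 9 in cadmium testes (-0.04, SE 0.88, edgeR adjusted p = 1.00). With cadmium in testes 0 of 6 tested genes of this list were called, beside 0% of all 30374 genes tested. Of the 6, 4 had a positive difference, and their median was 0.23.

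**Figure D4:**
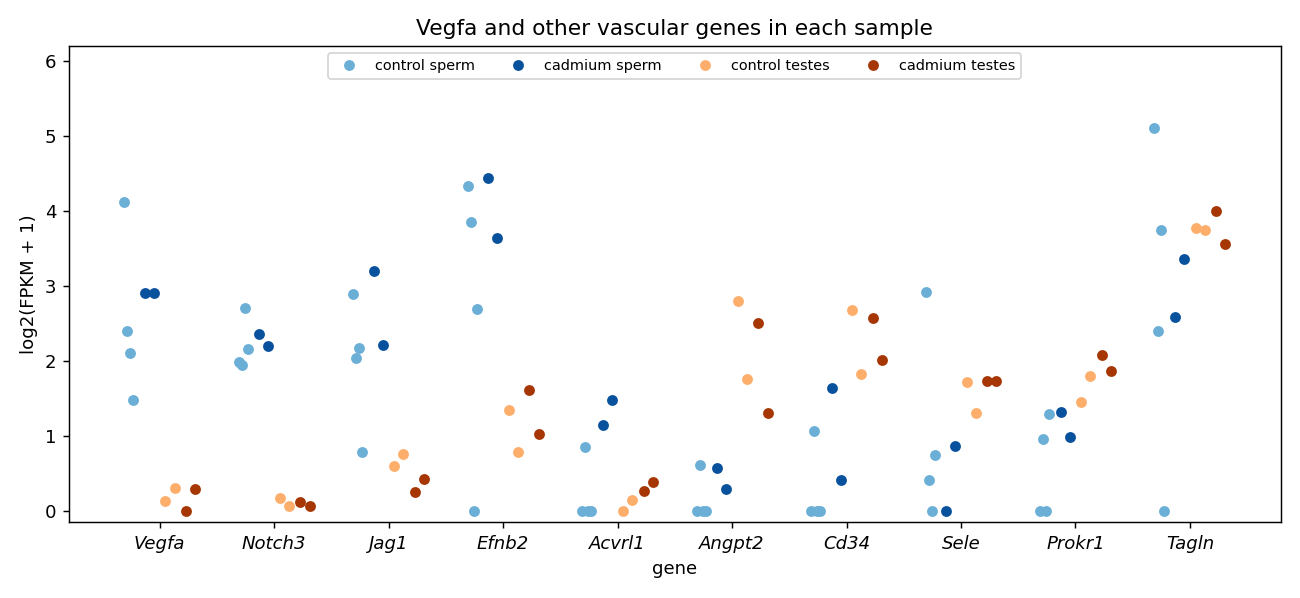
Levels of *Vegfa* and of the named vascular genes as log2(FPKM + 1), 1 point per sample, with sperm in blue and testes in orange and brown. *Vegfa*, *Notch3* and *Jag1* are higher in the cadmium sperm samples than in every testes sample, whereas *Angpt2* is higher in testes.

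Genes that answer to cadmium or carry it gave no called difference in testes either, where 3 of 7 were tested, beside 0% of all 30374 genes tested. *Mt1*, the metallothionein that binds cadmium, had 2 and 3 counts in control testes against 2 and 0 in cadmium testes and was too low to test. *Slc30a1*, the zinc exporter ZnT1, had 23 and 26 counts in control testes against 29 and 33 in cadmium testes, with a difference of 0.38 (SE 0.54, edgeR adjusted p = 1.00). *Slc30a1* was higher in cadmium sperm, with 89 and 49 counts, than in cadmium testes by 2.56 (SE 0.58, edgeR adjusted p = 0.000326). In control mice the fitted *Slc30a1* difference between sperm and testes was no smaller, at 2.71 (SE 1.12, edgeR adjusted p = 0.103), but was not called. *Slc39a14*, the zinc and cadmium importer ZIP14, was higher in cadmium sperm than in cadmium testes by 2.94 (SE 1.09, edgeR adjusted p = 0.0322). Thus 2 of the 3 genes tested in cadmium mice were called as higher in sperm, beside 14.2% of all genes tested. Both calls were lost without cadmium sperm 2 (2.92 and 3.46), and that of *Slc39a14* also without cadmium testes 2 (2.22). *Slc39a14* reached the filter only through sperm and could not be tested without cadmium sperm 1. DESeq2 did not call *Slc39a14* (3.08, adjusted p = 0.158), and limma called neither of these 2 genes. Of 7 germ cell genes tested between cadmium sperm and cadmium testes, 3 were called as lower, beside 14.1% of all genes tested. They were the protamine gene *Prm1* and the transition protein genes *Tnp1* and *Tnp2*. In control mice 2 of 8 were called as lower, *Prm1* and *Tnp1*, beside 3.9% of all genes tested. *Tnp1* in both comparisons, and *Prm1* in control mice, reached the filter only through testes. *Prm2*, the protamine gene with most counts, was not called, with 207 and 232 CPM in cadmium sperm beside 143 and 96.7 CPM in cadmium testes. Among the remaining lists, of leukocytes, red cells, Leydig cells, Sertoli cells and epididymal epithelium, the only gene called in any comparison was *Adam7* of the epididymis, lower in cadmium sperm than in cadmium testes, with 33 counts in cadmium testes 2 and 0 in cadmium testes 1.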

How the data were processed

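RNA from 6 sperm and 4 testes samples was read as strand-specific, paired-end libraries. The authors deposited, for every sample, each transcript above 0 with an expected count, which is not normalized, and an FPKM, scaled to transcript length and library size. The study's methods name SOAPaligner/SOAP2, while the submitters' processing notes name HISAT and mm10. The tool that gave the expected counts is not given in the sources used here. Groups were taken from the sample labels.

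Expected counts were summed by gene, a transcript that was not listed was taken as 0, and sums were rounded to whole numbers for testing with edgeR 4.0.16 in R 4.3.3 (TMM, quasi-likelihood test, Benjamini-Hochberg over all genes with at least 10 counts in the samples compared, called at an adjusted p under 0.05 and more than 2-fold). A gene could pass this filter through the counts of a single group. Control sperm pool 1 was left out of the fits, as in the study. The SE and the 95% interval of a log2 fold change were worked back from the F statistic, and the test was checked on simulated data. DESeq2 1.42.0 and limma 3.58.1, on log2(FPKM + 1) or log2(FPKM + 0.1), were alternatives, beside other scalings, filters and sets of samples. Wilson intervals, exact ratio intervals and the limit of 3 counts cover counting error only. Ratios of pooled counts used rounded sums.

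The 10 genes and all marker lists were chosen with earlier results of these data known. Named are all 10 genes and, from each other list, up to 3 called genes with the largest fold change in a comparison or, with none called, up to 2 with the highest FPKM in testes. *Angpt2* in cadmium sperm against cadmium testes, the *Actb* and *Gapdh* checks, and other markers given by their counts alone fall outside this rule and were named after their values were seen. Genes called in the lists of other cell types are given by name and direction only. Gene positions, transcripts and promoters came from RefSeq (GRCm38.p6), matched by symbol, and a list gene given under 2 symbols was counted once. Replicates were compared, and every pair within a group differed by more than sampling noise (chi-square per degree of freedom 9.57 to 16.5). Python 3.11.15, pandas 2.3.3, scipy 1.17.1 and matplotlib 3.10.9 were used.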

Additional observations from a re-analysis of the deposited data

Results flagged for a closer look

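Within the 4 control sperm pools 2 values stood apart from the rest by Dixon's ratio of the gap to the range, at its 95% critical value for 4 samples. *Eng* was listed at 0.35 FPKM in pool 2 alone, on 1.25 counts, with 0 in the other 3 pools, so the gap was the whole range, as it must be for any gene listed in 1 of 4 pools. Pool 2 is the deepest of the 4, and a ratio set by 3 zeros says nothing about this pool. *Vegfa* was 16.44 FPKM in pool 1, 23 counts, against 1.79 to 4.29 FPKM in the other pools, and only just passed the critical value. Chance alone puts about 1 in 20 groups past the critical value, a rate that does not hold for counts as sparse as those of *Eng*.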

How the results depend on the processing

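The number of the 10 genes called stayed at 0 for cadmium in testes, cadmium in sperm and the difference of the cadmium effects under every alternative run. For control sperm against control testes it was 1 (*Vegfa*) with DESeq2 and in 1 model of 9 samples, and 0 to 1 when single samples were left out. For cadmium sperm against cadmium testes it was 0 to 1 when single samples were left out.

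The number of all genes called moved widely, and the cause was not tested. For cadmium in testes it was 0, against 5 with DESeq2, 6 with a filter of 1 FPKM in 2 samples, 88 with no filter, 8 in 1 model of 9 samples, 155 with the replicate block, and 45 to 106 without single samples. For control sperm against control testes it was 1877, against 3192 with DESeq2, 5369 with the FPKM filter, 6017 and 6109 with limma at pseudocounts of 1 and 0.1, 113 over genes of NM_ transcripts alone, 6185 in 1 model of 9 samples, 5050 with control sperm pool 1, and 233 (without pool 2) to 3845 (without pool 3). For cadmium in sperm it was 19, against 11 with DESeq2, 2 and 0 with limma, 3 over NM_ genes alone, 29 in 1 model of 9 samples, and 7 to 38 without single samples. For cadmium sperm against cadmium testes it was 7593, against 4856 with DESeq2, 2362 over NM_ genes alone, 4075 in 1 model of 9 samples, and 839 (without cadmium sperm 2) to 4959. For the difference of effects it was 3, against 0 with DESeq2, 13 with the FPKM filter, 1 with pool 1, and 0 to 26 without single samples.

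Leaving out single samples turned the sign of uncalled cadmium differences in testes, with ranges of -0.88 to 0.37 for *Eng*, -1.20 to 0.15 for *Angpt2*, -0.22 to 0.53 for *Cd34*, -1.30 to 0.66 for *Kcnj8* and -0.11 to 0.29 for *Tagln*. Over the named genes and comparisons, leaving out single samples gave 10 reversals, all in these 5 genes, 14 lost calls and 1 gained, and the other alternatives gave 0 reversals, 23 lost calls and 2 gained, against 167 values on the same side of the threshold. Of *Vegfa* in cadmium sperm against cadmium testes, alternatives other than left-out samples all kept the call, with log2 differences from 2.77 with limma, on the log2(FPKM + 1) scale, to 6.07 with DESeq2. With the replicate block it was 5.94. Replicate numbers are shared by the labels alone: deviations of same-numbered samples correlated at 0.430 between control and cadmium testes and at 0.0771 between cadmium sperm and cadmium testes, over 2 pairs each, and were not treated as pairing. For the difference of effects the block was added after seeing the data and gave 118 called genes, 0 of them among the 10, with -1.25 for *Vegfa*. In the other comparisons, control sperm against control testes and cadmium against control sperm, the samples used share fewer than 2 numbers. Adjusted p-values that DESeq2 gave as NA were left out. Depth is a limit, since 8 of the 10 genes never reached 3 counts in a sample.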
